A study of Mus musculus with 96 samples.

Results

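The 7 genes described here are the metallothioneins Mt1, Mt2 and Mt3, the zinc-sensing transcription factor Mtf1, and the metal transporters Slc30a1, Slc30a10 and Slc39a14. They were taken by gene name from a count table of 56748 genes, and each of the 7 names matched 1 gene. Metallothioneins are small cysteine-rich proteins that bind zinc and copper and buffer the free metal in the cell. When zinc rises, MTF1 binds metal response elements in DNA and switches on metallothionein genes and Slc30a1, whose product exports zinc, and metallothionein genes also respond to glucocorticoids and to inflammation. In the liver, SLC39A14 brings zinc, iron and manganese into the hepatocyte and SLC30A10 carries manganese out of it.

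RNA was sequenced from liver, muscle and cerebral cortex of C57BL/6 mice fed ad libitum (AL) or kept on intermittent fasting (IF), to ask how fasting changes each tissue. Mice 1 to 16, labelled male, had 8 AL and 8 IF animals, and mice 25 to 40, labelled female, had 8 AL and 8 IF animals. The IF males went without food for 16 h a day for 4 months from 6 weeks of age, and tissue was taken after perfusion with saline. The paper states that IF males were killed as their daily fast ended, while AL males had unlimited food. The fasted state at sampling and the months on the diet therefore cannot be told apart. The age of mice 25 to 40, their hours of fasting and the length of their diet are not given in the sources used here, so sex cannot be told apart from any other difference between these cohorts.

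The table held 96 libraries, of which 95 were used. Total counts per library ran from 26097314 to 49838004, with a median of 36132954. Levels below are in CPM, the usual scaling of each count by its library's total, and levels of different genes are compared only after division by gene length in kilobases (CPM per kb). The RNA came from whole tissue, so fewer cells of a type and less RNA per cell cannot be told apart. In each tissue and cohort, differences between IF and AL were tested with edgeR's quasi-likelihood test, and a gene was called at a Benjamini-Hochberg adjusted p under 0.05 over all genes that passed a filter on low counts. Fold changes are log2 of IF over AL, each with its standard error (SE).

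The markers of each tissue were high where the label placed them. The 5 hepatocyte markers summed to between 42422 and 97557 CPM in liver libraries, and the 5 muscle fibre markers to between 111717 and 152694 CPM in muscle. Outside their tissue the hepatocyte markers reached 4270 CPM, in cortex of IF mouse 36, and the muscle fibre markers 29.4 CPM. Ttr, which is also a choroid plexus marker, led the hepatocyte markers in each cortex group. The 5 neuronal markers summed to at least 8650 CPM in cortex and to at most 474.8 CPM elsewhere, where Camk2a in muscle was the largest part. In the libraries labelled male that were used, the highest Xist level was 0.612 CPM, while the lowest in the libraries labelled female was 36.8 CPM. The cortex library of AL mouse 1, labelled male, had 213 CPM of Xist and 0 counts of Ddx3y, Eif2s3y, Kdm5d and Uty, so it went against its label and was omitted. Each cortex result of mice 1 to 16 that changes with this library is given with it as well. With it, Mt2 did not pass the low-count filter in cortex of mice 1 to 16.

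Of the 7 genes, 5 passed the low-count filter in liver of mice 1 to 16, where Mt2 and Mt3 did not. In liver of mice 25 to 40, 6 passed and Mt3 did not. In muscle of either cohort 5 passed, without Mt2 and Slc30a10, and in cortex of either cohort 7 passed.

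Cortex held high Mt1 and Mt3 in every library, muscle held a low level of Mt1, and the liver level of Mt1 depended on cohort and diet. Mt3, the metallothionein of the nervous system, was at 277 CPM or above in AL cortex of mice 1 to 16 and at 266 CPM or above in AL cortex of mice 25 to 40. In muscle Mt3 ran from 0.217 to 2.16 CPM in AL mice, and no liver library held more than 8 counts of it. Mt4, outside the 7 genes, had a median of 0 in every group.

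In AL mice of cohort 1 to 16, the median Mt1 level was 348 CPM in cortex, 15.6 CPM in muscle and 7.19 CPM in liver. Mt1 was therefore lowest in liver, with a log2 difference of -4.66 from cortex (SE 0.216, adjusted p 5.69e-17) and of -1.15 from muscle (SE 0.192, adjusted p 4.9e-06). The ranges of liver (4.94 to 12.3 CPM) and muscle (9.77 to 23.6 CPM) overlapped. In AL mice 25 to 40 the order was different, with median Mt1 of 448 CPM in liver, 439 CPM in cortex and 13.3 CPM in muscle. There the log2 difference of liver from muscle was 5.51 (SE 0.378, adjusted p 2.78e-13), and that of liver from cortex was 1.41 (SE 0.317, adjusted p 2.11e-04), although the ranges of liver and cortex overlapped. With library totals the latter was 0.77 (adjusted p 0.0247, the range over 5 alternatives being 1.27e-05 to 0.0247). Most genes differed between tissues by the test. Liver and muscle differed in 80.9% of all genes tested in mice 1 to 16 and in 80.6% in mice 25 to 40. For liver and cortex the shares were 84.5% and 84.8%, and for muscle and cortex 81.4% and 81.2%.

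The transporters had their own order. Slc39a14, the importer of zinc, iron and manganese, was a liver gene, with AL medians of 124 CPM in liver, 18.5 CPM in cortex and 6.89 CPM in muscle of mice 1 to 16. Its log2 difference between liver and cortex was 3.53 in mice 1 to 16 and 3.94 in mice 25 to 40. Under the alternatives that difference fell as low as 2.70 and 3.31. Slc30a10, the manganese exporter, was found in liver and cortex and was at or under 3 counts in every muscle library. Its AL level in liver exceeded that in cortex by a log2 difference of 3.52 in mice 1 to 16 and of 1.67 in mice 25 to 40. The lowest values of this difference over the alternatives were 2.70 and 1.05. Slc30a1, the zinc exporter of the plasma membrane, was lowest in muscle, by a log2 difference of -1.39 from cortex in mice 1 to 16 and of -0.74 in mice 25 to 40. Over the alternatives the muscle and cortex difference of Slc30a1 reached -2.45 and -1.63. Its liver and cortex levels did not differ by the test in either cohort (-0.17, adjusted p 0.239, and 0.15, adjusted p 0.239), but with library totals liver was called lower in both (-0.995, adjusted p 3.79e-07, and -0.48, adjusted p 0.00114). The adjusted p ran from 3.79e-07 to 0.333 over 7 alternatives in mice 1 to 16 and from 0.00114 to 0.483 over 5 in mice 25 to 40, so this result depends on the scaling. Mtf1 showed the smallest spread between tissues, with AL medians between 8.35 and 16.2 CPM in mice 1 to 16 and between 9.31 and 14.4 CPM in mice 25 to 40. Library totals alone, which shift the median of all genes from -0.24 to -1.29 for muscle against cortex in mice 1 to 16, changed its order. They moved the muscle and cortex difference from 0.16 (not called) to -0.90 (adjusted p 4.01e-07) in mice 1 to 16 and from 0.58 to -0.31 (adjusted p 0.00632) in mice 25 to 40, called in opposite directions. They also made the liver and cortex difference of Mtf1 a call (-1.01, adjusted p 5.66e-08, and -0.69, adjusted p 6.45e-07). Over the alternatives the highest adjusted p of these differences was 0.612 and 0.00632 for muscle and cortex and 0.267 and 0.665 for liver and cortex, so no order of Mtf1 against cortex is read from them. The liver minus muscle difference of Mtf1 in mice 25 to 40 was -0.63. It ran from -0.66 to -0.38 over 5 alternatives, with a highest adjusted p of 0.00155. In mice 1 to 16 this difference was -0.32, and its highest adjusted p over 7 alternatives was 0.434.

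Per kilobase of gene, the liver of AL mice 1 to 16 was led by the transporters. Slc30a10 stood at a median of 17.5 CPM per kb and Slc39a14 at 11.7 CPM per kb, followed by Mt1 at 5.77, Slc30a1 at 2.25 and Mtf1 at 0.937 CPM per kb. In IF mice of the same cohort Mt1 led, at a median of 117 CPM per kb, ahead of Slc39a14 at 13.02 CPM per kb, and Slc30a10 and Slc30a1 lay near each other at 5.40 and 4.21 CPM per kb. In AL mice 25 to 40 Mt1 also led the liver, at 360 CPM per kb against 17.1 CPM per kb for Slc39a14. In AL cortex of mice 1 to 16, Mt3 at 377 and Mt1 at 279 CPM per kb were neighbours whose ranges overlapped, and every transporter lay at or under 5.47 CPM per kb.

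In the liver of mice 1 to 16, IF was accompanied by a large rise of Mt1, a smaller rise of the zinc exporter Slc30a1 and a fall of the manganese exporter Slc30a10. The sensor gene Mtf1 and the importer Slc39a14 did not pass the test. Of the 5 genes tested, 2 were called higher and 1 lower, in a tissue where 23.5% of all 16204 genes tested were called higher and 21.1% lower. The share of genes called in either direction was 44.6%, so a call alone sets a gene little apart here.

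Mt1 ran from 4.94 to 12.3 CPM in the AL livers, with a median of 7.19, and from 28.6 to 368 CPM in the IF livers, with a median of 146. Every IF liver lay above every AL liver, and the spread within IF was wide, with IF mouse 9 lowest and IF mouse 15 highest. The log2 fold change was 4.11 (SE 0.543, adjusted p 2.14e-05, higher in 8 of 8 IF livers than the AL median), a ratio of medians of 20.4. Groups without overlap and with IF higher were seen for 8.97% of all genes tested.

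Slc30a1 ran from 8.20 to 19.3 CPM in AL livers, with a median of 11.8, and from 18.9 to 32.1 CPM in IF livers, with a median of 22.1. The groups met at 1 library, since 7 of 8 IF livers were above the highest AL liver. Slc30a1 rose by a log2 fold change of 0.84 (SE 0.151, adjusted p 7.52e-05).

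Slc30a10 went the other way, from 66.4 to 148 CPM in AL livers, with a median of 114, to between 26.98 and 68.1 CPM in IF livers, with a median of 35.2. Here 7 of 8 IF livers were below the lowest AL liver, and IF mouse 15, the library with the most Mt1, was the exception. Slc30a10 had a log2 fold change of -1.54 (SE 0.200, adjusted p 2.71e-06).

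Mtf1 ran from 6.94 to 11.3 CPM in AL and from 6.31 to 15.3 CPM in IF livers, and its log2 fold change was -0.10 (SE 0.156, adjusted p 0.631, lower in 5 of 8). Slc39a14 ran from 91.7 to 165 CPM in AL and from 62.8 to 195 CPM in IF livers, and its log2 fold change was 0.08 (SE 0.153, adjusted p 0.718, higher in 5 of 8). Both groups of ranges overlapped throughout.

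**Figure D1:**
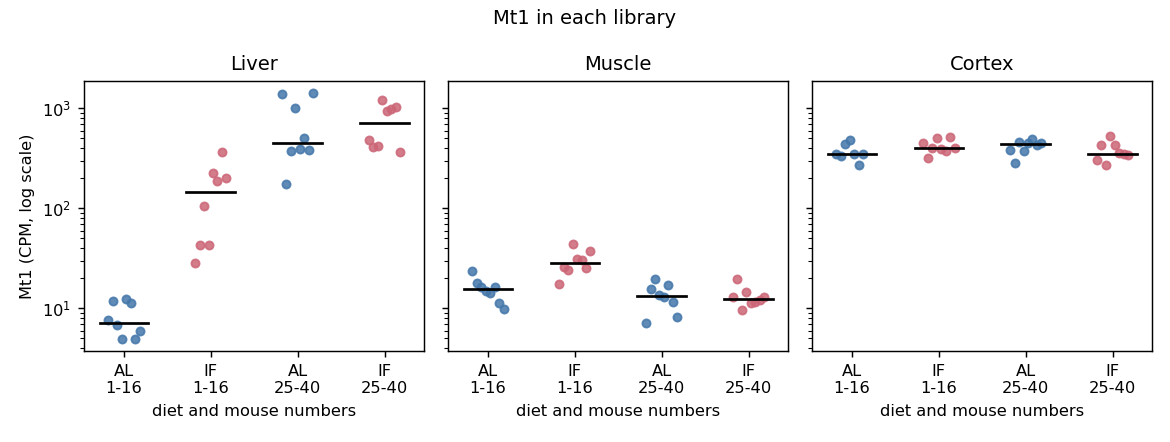
Mt1 level in CPM on a log axis for each library, by tissue, cohort and diet, with group medians as black lines. In liver of mice 1 to 16 the 8 IF livers (28.6 to 368 CPM) lie above the 8 AL livers (4.94 to 12.3 CPM), while in liver of mice 25 to 40 the groups overlap.

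Other transcripts moved in the same livers, where 23.5% of all genes tested were called higher and 21.1% lower. The 5 erythroid markers (Hba-a1, Hba-a2, Hbb-bs, Hbb-bt and Alas2) summed to 362 to 956 CPM in AL, with a median of 569, and to 667 to 6879 CPM in IF, with a median of 2070. Of these 5 markers 3 were called higher (Hbb-bs, Hba-a1 and Hbb-bt), none was at 0, and Hba-a1 was the most abundant. With the erythroid sum as a covariate, an alternative chosen after seeing the data, Mt1 had a log2 fold change of 4.52 (adjusted p 2.04e-04), Slc30a1 of 0.77 (adjusted p 0.00714) and Slc30a10 of -1.34 (adjusted p 0.00177). Over the 8 alternatives of each gene the adjusted p ran up to 0.00114 for Mt1 from 5.14e-17, from 3.90e-06 to 0.00714 for Slc30a1, and from 2.99e-15 to 0.00177 for Slc30a10. IF mouse 9, with the highest erythroid sum and the lowest median correlation with the other liver libraries (0.857), was left out in a further fit chosen after seeing the data, and Mt1 (4.23), Slc30a1 (0.84) and Slc30a10 (-1.51) were called again. The 8 glucocorticoid-induced genes summed to 277 to 809 CPM in AL livers, with a median of 419, and to 808 to 1725 CPM in IF livers, with a median of 1418, and 6 of the 8 were called higher. Their most abundant gene was Errfi1 and none was at 0. The 8 acute phase genes had 5 called higher (Hp, Saa3, Saa2, Orm2 and Saa1), with sums of 4299 to 6255 CPM in AL, median 5908, and 5809 to 9550 CPM in IF, median 6438, led by Hp with none at 0. The macrophage markers had 1 of 5 called higher (C1qa), with sums of 59.7 to 91.0 CPM in AL, median 70.4, and 62.5 to 272 CPM in IF, median 87.7, and none at 0. The 5 adipocyte markers summed to 16.96 to 40.8 CPM in AL, median 27.97, and to 4.36 to 17.8 CPM in IF, median 8.02. Of the 2 tested, 1 was called lower (Cfd) and 0 higher, with Cfd the most abundant in AL, Cidec in IF, and Lep at 0 in IF. The part of glucocorticoid-induced, acute phase, macrophage and adipocyte transcripts in the Mt1 result was not tested.

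In the liver of mice 25 to 40, no member passed the test. Mt1 was already high in AL animals and its IF range lay inside the AL range, and Slc30a10 was low in either group. edgeR's quasi-likelihood test called 0 of the 6 members and 0 of 15938 genes (0.0%), with 919 genes at an unadjusted p under 0.05 and 8 called by DESeq2, which called 0 members too. The lowest unadjusted p of a member in any tissue of mice 25 to 40 was 0.0638, for Slc39a14 in muscle.

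Mt1 ran from 175 to 1414 CPM in AL livers, with a median of 448, and from 367 to 1209 CPM in IF livers, with a median of 709. The groups overlapped, and 5 of 8 IF livers lay above the AL median. The log2 fold change was 0.07 (SE 0.417, adjusted p 0.987). Slc30a10 ran from 15.01 to 48.2 CPM in AL and from 17.9 to 44.1 CPM in IF livers, with a log2 fold change of -0.19 (SE 0.210, adjusted p 0.914, lower than the AL median in 6 of 8). Slc30a1 ran from 11.97 to 23.5 CPM in AL and from 14.5 to 24.5 CPM in IF livers, with a log2 fold change of 0.07 (SE 0.155, adjusted p 0.965, higher in 3 of 8). Mtf1 and Slc39a14 had log2 fold changes of -0.05 and 0.09, with ranges that overlapped.

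The liver responses of the cohorts differed for the 3 genes that were called in mice 1 to 16. The difference, mice 25 to 40 minus mice 1 to 16, was -4.00 for Mt1 (SE 0.678, adjusted p 6.75e-05), with IF above the AL median in 8 of 8 mice of the first cohort and 5 of 8 of the second. For Slc30a1 it was -0.74 (SE 0.222, adjusted p 0.0127), with 8 of 8 against 3 of 8 IF livers above the AL median. For Slc30a10 it was 1.40 (SE 0.306, adjusted p 9.4e-04), with 8 of 8 against 6 of 8 IF livers below it. Among all genes, 12.8% were called with a higher and 10.9% with a lower response in mice 25 to 40, 23.7% in all. The differences of Mtf1 (0.08, adjusted p 0.816) and Slc39a14 (0.05, adjusted p 0.897) did not pass, and that of Mt2 was -3.37 (SE 1.33, adjusted p 0.0619) at very low counts. Mt2 was called lower in this difference with library totals, in DESeq2 and without IF mouse 9, the last chosen after seeing the data, so its result depends on the processing. With no filter beyond 1 count Mt3, which did not pass the filter there, was called lower.

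AL levels already set the cohorts apart. Median Mt1 in AL liver was 7.19 CPM in mice 1 to 16 and 448 CPM in mice 25 to 40, a ratio of 62.3, with no overlap. Median Slc30a10 in AL liver was 114 and 25.2 CPM, a ratio of 0.221, also with no overlap. Between cohorts, 3.86% of 15429 genes were higher in AL liver of mice 25 to 40 without overlap and 1.66% were lower. In IF livers Mt1 overlapped between the cohorts, if barely, the highest of mice 1 to 16 being 368 CPM and the lowest of mice 25 to 40 being 367 CPM. The IF level of Slc30a10 in mice 1 to 16, a median of 35.2 CPM, lay near the AL level of mice 25 to 40. In AL liver the macrophage markers summed to 59.7 to 91.0 CPM in mice 1 to 16. In mice 25 to 40 they summed to 92.2 to 448 CPM. Median sums were 27.97 and 4.17 CPM for adipocyte markers and 419 and 725 CPM for glucocorticoid-induced genes. For acute phase genes they were 5908 and 7338 CPM, and for erythroid markers 569 and 522 CPM. The part of these transcripts in the member levels was not tested. These cohort levels are a description, and labelled sex, age, diet length and processing cannot be told apart in them.

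In the muscle of mice 1 to 16, the same direction as in liver was seen for Mt1 and Slc30a1. Of the 5 genes tested 2 were called higher and 0 lower by edgeR, where 11.5% of 15025 genes were called higher, 11.6% lower and 23.0% in all. DESeq2 called no member lower either, and no other member had an unadjusted p under 0.05. Mt1 ran from 9.77 to 23.6 CPM in AL muscle, with a median of 15.6, and from 17.5 to 43.9 CPM in IF muscle, with a median of 28.3. The groups overlapped through 1 IF muscle, 7 of 8 being above the highest AL muscle. Mt1 rose by a log2 fold change of 0.84 (SE 0.193, adjusted p 0.00546).

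Slc30a1 ran from 3.67 to 5.91 CPM in AL muscle, with a median of 4.64, and from 5.28 to 7.88 CPM in IF muscle, with a median of 6.43. All 8 IF muscles lay above the AL median and 5 above the highest AL muscle. The log2 fold change was 0.38 (SE 0.111, adjusted p 0.0154). Mt3 (0.17, adjusted p 0.76), Mtf1 (-0.16, adjusted p 0.209) and Slc39a14 (-0.11, adjusted p 0.504) did not pass, and their ranges overlapped.

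Muscle samples also differed in adipocyte and glucocorticoid-induced transcripts. Of all genes tested in muscle of mice 1 to 16, 11.5% were called higher. The 5 adipocyte markers summed to 30.1 to 332 CPM in AL muscle of mice 1 to 16, with a median of 93.2, and to 112 to 1860 CPM in IF muscle, with a median of 714. Of the 5, 4 were called higher (Adipoq, Cidec, Plin1 and Cfd), Cfd was the most abundant and none was at 0. The 8 glucocorticoid-induced genes summed to 332 to 444 CPM in AL, with a median of 368, and to 529 to 1085 CPM in IF, with a median of 900, and 6 of 8 were called higher, led by Tsc22d3 with none at 0. Their part in the Mt1 and Slc30a1 results was not tested.

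In the muscle of mice 25 to 40 neither gene changed by the test. edgeR's quasi-likelihood test called 0 of 5 members, against 1 of 15308 genes (0.00653%), with 1644 genes at an unadjusted p under 0.05 and 83 genes but no member called by DESeq2. Mt1 ran from 7.22 to 19.8 CPM in AL and from 9.57 to 19.5 CPM in IF muscle, and its log2 fold change was 0.05 (SE 0.170, adjusted p 0.936, higher in 2 of 8). Slc30a1 ran from 6.60 to 11.1 CPM in AL and from 5.23 to 10.2 CPM in IF muscle, and its log2 fold change was -0.08 (SE 0.116, adjusted p 0.83, lower in 5 of 8). Slc39a14 had a log2 fold change of -0.21 (SE 0.107, adjusted p 0.492), with 8 of 8 IF muscles below the AL median and 3 below the lowest AL muscle. Mtf1 was at -0.06 (SE 0.0751, adjusted p 0.793), with 6 of 8 below the AL median and 5 below the lowest AL muscle, and Mt3 at -0.07 (SE 0.388, adjusted p 0.972, 4 of 8 below).

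The muscle responses of Mt1 differed between cohorts by -0.77 (SE 0.262, adjusted p 0.0476), close to the threshold, where 6.77% of all genes had a lower response, 7.38% a higher one and 14.2% either. This call was lost with DESeq2's size factors (RLE) in edgeR (adjusted p 0.0503) and without the low-count filter (adjusted p 0.102), and over its 6 alternatives the adjusted p ran from 0.0165 to 0.136. A block per replicate number also ended it. For Slc30a1 the difference was -0.45 (SE 0.159, adjusted p 0.0545), which missed the threshold and passed it with library totals (adjusted p 0.0143) and in DESeq2 (adjusted p 0.0480), with a range of 0.0143 to 0.0943 over 6 alternatives. It passed with the block as well. Among other transcripts, 6 of 8 glucocorticoid-induced genes and 3 of 5 adipocyte markers were called lower in this cohort difference, and 0 higher. Their part in the member differences was not tested. In AL muscle, the level of Slc30a1 was 4.64 CPM in mice 1 to 16 and 7.84 CPM in mice 25 to 40, and that of Mtf1 was 8.54 and 11.9 CPM, with no overlap for either gene. Of 14680 genes, 7.14% were higher in AL muscle of mice 25 to 40 without overlap.

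In cortex no metallothionein was called in either cohort, and Slc30a10 was called in mice 1 to 16 only. In mice 1 to 16, edgeR called 1 of 7 members lower and 0 higher, where 3.43% of 18462 genes were called lower, 3.79% higher and 7.21% in all, with 4400 genes at an unadjusted p under 0.05. Among the members, Slc30a1 alone besides Slc30a10 had an unadjusted p under 0.05 (-0.14, p 0.0416 by edgeR's test, adjusted p 0.189, lower than the AL median in 8 of 8), and DESeq2 called no member higher. Slc30a10 ran from 15.93 to 19.8 CPM in AL cortex, with a median of 17.1, and from 11.7 to 15.92 CPM in IF cortex, with a median of 14.4. The groups did not overlap, though they nearly touched, as was so with IF lower for 0.601% of genes. The log2 fold change was -0.27 (SE 0.0780, adjusted p 0.0395, lower in 8 of 8).

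The cortex result for Slc30a10 was fragile. With the omitted library of AL mouse 1, which held 12.3 CPM, the log2 fold change was -0.22 (adjusted p 0.165) and the groups overlapped. The call was also lost without AL mouse 2 and IF mouse 10 (-0.25, adjusted p 0.125) and without the low-count filter (-0.27, adjusted p 0.0667), and over 7 alternatives the adjusted p ran from 0.0171 to 0.165. A block per replicate number ended the call too. The count of genes called in this comparison moved from 1332 to 294 with the library of AL mouse 1 and to 498 without mice 2 and 10.

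Mt1 ran from 269 to 478 CPM in AL and from 321 to 517 CPM in IF cortex of mice 1 to 16, with a log2 fold change of 0.20 (SE 0.119, adjusted p 0.315, higher in 7 of 8). Mt3 ran from 277 to 538 CPM in AL and from 281 to 413 CPM in IF cortex, with a log2 fold change of -0.17 (SE 0.141, adjusted p 0.504, lower in 7 of 8). Mt1 and Mt3 thus overlapped between diets. Mtf1 had a log2 fold change of 0.16 (adjusted p 0.364), higher than the AL median in 8 of 8 IF cortices and above the AL range in none. In these cortices 4 of 8 glucocorticoid-induced genes were called higher (Sgk1, Ddit4, Fkbp5 and Tsc22d3), with sums of 378 to 585 CPM in AL, median 435, and 554 to 768 CPM in IF, median 663, led by Per1 with none at 0. Of all genes tested there, 3.79% were called higher. The 5 choroid plexus markers, led by Ttr, summed to 5.73 to 3161 CPM in AL and 6.24 to 3469 CPM in IF cortex, with medians of 36.1 and 20.2 CPM and none at 0, and their part in the member levels was not tested.

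In cortex of mice 25 to 40, edgeR called 0 of 7 members and 2 of 18403 genes (0.0109%), with 2069 genes at an unadjusted p under 0.05 and 60 genes but no member called by DESeq2. Slc30a10 ran from 11.6 to 17.0 CPM in AL and from 12.7 to 17.7 CPM in IF cortex, with a log2 fold change of 0.14 (SE 0.0810, adjusted p 0.499, higher in 6 of 8). Its response differed between cohorts by 0.42 (SE 0.111, adjusted p 0.0418), where 1.06% of genes had a higher and 0.967% a lower response, 2.03% in all. This difference was lost with library totals (adjusted p 0.0565), without the filter (adjusted p 0.0661), without mice 2 and 10 (adjusted p 0.105) and with the library of AL mouse 1 (0.37, adjusted p 0.153), and over 7 alternatives the adjusted p ran from 0.0170 to 0.153. With a block per replicate number it was not called either. Mt1 had a log2 fold change of -0.14 (SE 0.140, adjusted p 0.694, lower in 7 of 8), and its difference between cohorts was not called (-0.34, adjusted p 0.423). Across cohorts, no member had AL cortex levels without overlap, against 1.82% of 18106 genes. The choroid plexus markers summed to 8.79 to 126 CPM in AL cortex of mice 25 to 40, with a median of 21.7. In IF cortex they summed to 4.43 to 4377 CPM, with a median of 12.1, and their part in the member levels was not tested.

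**Figure D2:**
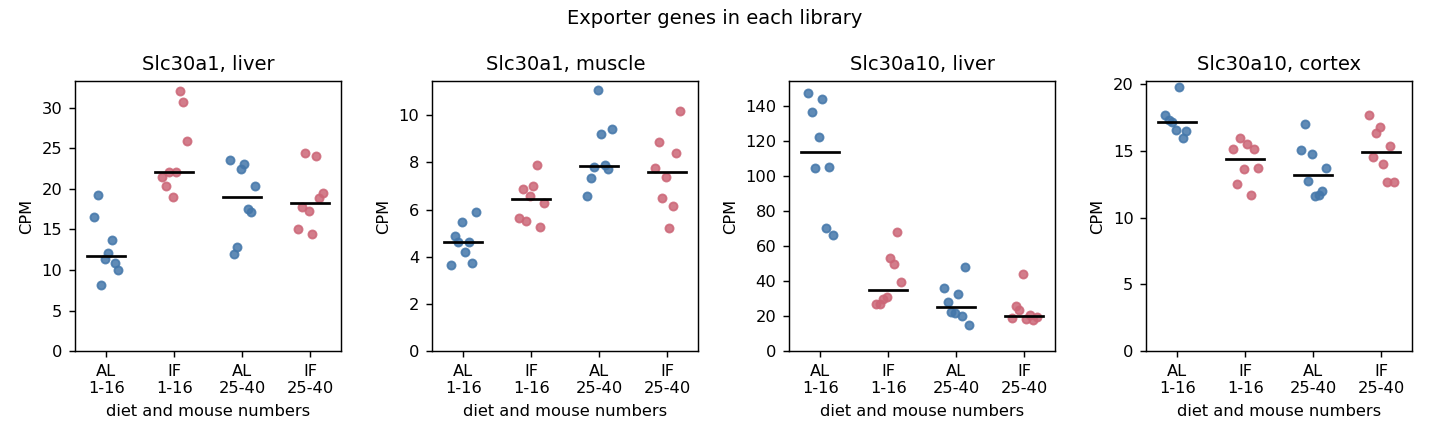
Level in CPM of the exporters Slc30a1 and Slc30a10 in each library, by tissue, cohort and diet, with group medians as black lines. In liver of mice 1 to 16 the median of Slc30a1 is 11.8 CPM in AL and 22.1 CPM in IF, and that of Slc30a10 is 114 CPM in AL and 35.2 CPM in IF.

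The response of Mt1 in mice 1 to 16 was larger in liver than in the other tissues. The difference of responses was 3.23 between liver and muscle (SE 0.438, adjusted p 8.45e-08) and 3.88 between liver and cortex (SE 0.442, adjusted p 2.04e-09), with IF above the AL median in 8 of 8 livers, 8 of 8 muscles and 7 of 8 cortices. Slc30a1 responded more in liver than in cortex, by 0.95 (SE 0.173, adjusted p 2.43e-05, higher in 8 of 8 livers and lower in 8 of 8 cortices). Its difference between liver and muscle was 0.42 (SE 0.174, adjusted p 0.0588) and between muscle and cortex 0.54 (SE 0.177, adjusted p 0.0633). Over 7 alternatives these adjusted p values ran from 0.0325 to 0.122 and from 0.0339 to 0.112, so whether these differences pass depends on the processing. Slc30a10 fell more in liver than in cortex, by a difference of -1.30 (SE 0.216, adjusted p 8.96e-06, lower in 8 of 8 in either tissue). Between liver and muscle 33.7% of genes were called, 16.6% with a higher response in liver. Between liver and cortex 30.1% were called, 15.7% with a higher and 14.5% with a lower response in liver, and between muscle and cortex, where edgeR and DESeq2 differed on Slc30a1, 5.21%. In mice 25 to 40, edgeR called no member in any of these differences, against 0.0611%, 0.0564% and 0.0047% of genes, which had 2041, 2494 and 1384 genes at an unadjusted p under 0.05 and 209, 239 and 28 called by DESeq2. With the mouse number as a block edgeR called 1 gene between liver and muscle, where 13 were called without it, and 0 between liver and cortex, where 12 were.

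**Figure D3:**
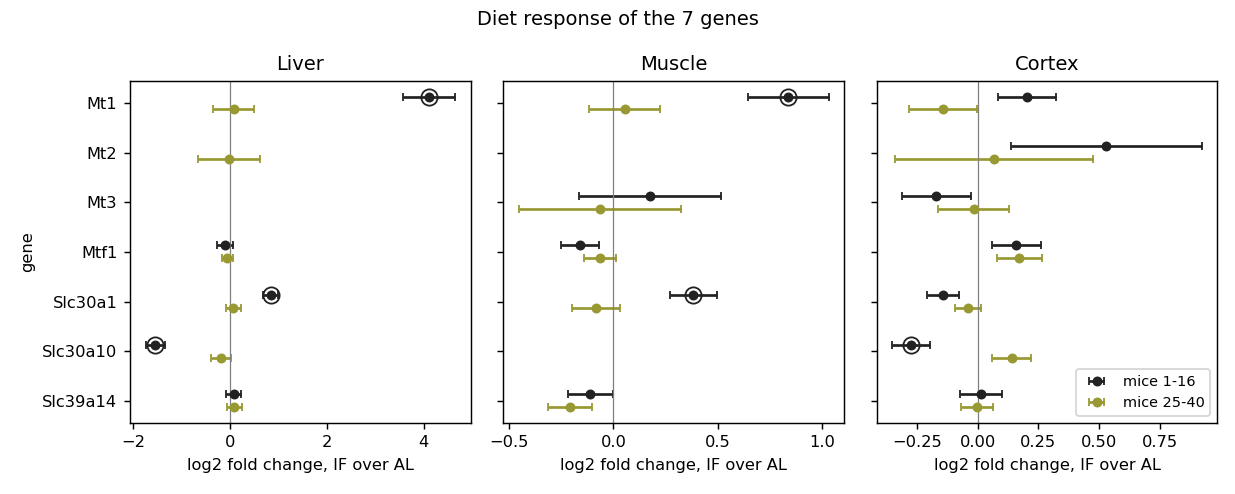
Log2 fold change of IF over AL for each member by tissue and cohort, with bars of 1 standard error and circles marking an adjusted p under 0.05. The scale of the x axis differs between panels, and the point farthest from 0 is Mt1 in liver of mice 1 to 16, at 4.11.

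Mt2, which lies beside Mt1, was almost absent from the counts. In the deposited annotation on GRCm39, Mt3 (chr8:94879235-94880774), Mt2 (chr8:94899292-94900196) and Mt1 (chr8:94905710-94906955) follow each other on the plus strand, with 18517 bases between Mt3 and Mt2 and 5513 between Mt2 and Mt1. Mt2 had at most 18 counts in liver of mice 1 to 16, where it was found in 5 of 16 libraries, between 2 and 123 counts in liver of mice 25 to 40, at most 5 in muscle and between 4 and 33 in cortex. The gene Gm45774, annotated on the opposite strand, overlaps 749 of the 905 bases that Mt2 spans and leaves 156 bases outside, and it had a median of 9 counts and at most 97. How reads in overlapping genes were counted is not given in the sources used here, so the Mt2 level is uncertain, and the part of the overlap was not tested. In liver of mice 25 to 40 Mt2 had a log2 fold change of -0.02 (SE 0.638, adjusted p 1, with 7 of 8 IF livers above the AL median), and in cortex of mice 1 to 16 of 0.53 (SE 0.393, adjusted p 0.443, higher in 7 of 8).

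What reads Mt2 did have followed Mt1 in liver of mice 25 to 40. Over 16 libraries, with the diet means removed, Pearson's r was 0.81 (two-sided permutation test, p 0.00119, Benjamini-Hochberg adjusted 0.00714 over 6 correlations) and Spearman's rho was 0.78 (permutation p 0.00118, adjusted 0.00708). Without the 2 mice farthest from the median of Mt1, AL mice 25 and 32, r was 0.68. In liver of mice 1 to 16 r was 0.67 (permutation p 0.0420, adjusted 0.126) and rho 0.52 (permutation p 0.111, adjusted 0.221), and r fell to 0.43 without IF mice 13 and 15, on which it rests. On linear CPM this correlation passed the threshold, so whether it passes depends on the scale. In cortex r was 0.27 (permutation adjusted p 0.513, rho 0.36, adjusted 0.291) in mice 1 to 16, where it was -0.19 without AL mouse 7 and IF mouse 15 and so has no firm sign, and 0.48 (permutation adjusted p 0.151, rho 0.49, adjusted 0.209) in mice 25 to 40. In muscle, where Mt2 was found in 1 and 2 libraries, r was 0.09 and -0.06 (0.21 and -0.39 without the 2 mice farthest from the median of Mt1).

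The genes most like Mt1, Mt2 and Slc39a14 across liver were sought in mice 1 to 16 with diet means removed and read again in mice 25 to 40. For Mt1, among 16203 genes with a median r of 0.0637, the 3 highest were ENSMUSG00000120325 (r 0.867), Il1r1 (0.858) and Picalm (0.851). None held in mice 25 to 40, where their r was -0.429, -0.286 and -0.0685. For Slc39a14, with a median r of 0.132, the 3 highest were Thrap3 (0.930), Ttll4 (0.921) and Prpf39 (0.920), with r of 0.836, 0.865 and 0.797 in mice 25 to 40. For Mt2, whose counts in mice 1 to 16 were mostly 0, they were 9330162012Rik (0.826), Tango2 (0.814) and Gm49694 (0.804), with r of 0.263, 0.247 and 0.00828. These values over 16 libraries describe the data and carry no test.

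The families around these genes were read from lists of each family. Of 10 exporters of the SLC30 family, 8 were tested in liver of mice 1 to 16, with 2 called higher (Slc30a3 and Slc30a1) and 2 lower (Slc30a6 and Slc30a10), where 23.5% of all genes were called higher and 21.1% lower. Slc30a3 was no longer called with the erythroid covariate chosen after seeing the data. Their median log2 fold change was -0.14 against 0.06 for all genes. Without AL mouse 2 and IF mouse 10 that median was 0.01, so it has no firm sign. Of 14 importers of the SLC39 family, 13 were tested there, with 3 called higher (Slc39a6, Slc39a5 and Slc39a8) and 2 lower (Slc39a9 and Slc39a4), where 44.6% of all genes were called, and a median of 0.04. Of the 3 called higher, only Slc39a6 was called with the erythroid covariate. The transporters outside the 7 members that are named here were chosen after their values were seen. The largest of them was Slc39a6 at 2.36 (SE 0.378, adjusted p 2.02e-05), with medians of 0.663 CPM in AL and 4.30 CPM in IF livers and no overlap. Of all genes tested there, 8.97% had no overlap with IF higher. Slc39a4 was at -0.95 (SE 0.131, adjusted p 2.56e-06), with medians of 29.8 and 15.8 CPM.

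In muscle of mice 1 to 16 the importers had 0 of 12 called higher and 4 called lower (Slc39a7, Slc39a10, Slc39a3 and Slc39a1), where 11.5% of all genes were called higher and 11.6% lower. They had a median of -0.17 against 0.01 for all genes, and library totals moved that median to -0.09 with 3 lower and Slc39a8 higher. With no filter beyond 1 count only Slc39a3 and Slc39a1 were called lower. The 7 exporters tested had Slc30a1 higher and Slc30a2 lower, the latter not called with library totals. In cortex of mice 1 to 16 edgeR called 1 importer of 14, Slc39a10 at -0.36 (SE 0.0716, adjusted p 0.00715), where 3.43% of all genes were called lower and 7.21% in all, while DESeq2 and library totals called Slc39a6 lower as well. Of the 9 exporters tested there, edgeR called Slc30a10 alone. In mice 25 to 40 edgeR called 0 of the family genes in any tissue, where 0, 1 and 2 of all genes were called in liver, muscle and cortex, so this count tells nothing about the families.

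Since in mice 1 to 16 Mt1 and Slc30a1 rose in liver and muscle and Slc30a10 fell in liver, none of which was called in mice 25 to 40, the bases before their starts are shown, with Mt2 as the neighbour of Mt1. Promoters were taken from RefSeq on GRCm38.p6, where 6 of the 7 members were matched by symbol, Slc39a14 being the other, and the 250 bases before the start were searched on both strands for the letters TGCACNC and TGCGCNC, the core of a metal response element. At least 1 match was found in 21.4% of 32851 promoters and at least 3 in 1.26%. Mt1 (chr8:94178839-94179088, plus strand) held 1 match, 23 bases before the start, and Slc30a1 (chr1:191906531-191906780, plus strand) held 1 at 43 bases. Mt2 (chr8:94172368-94172617, plus strand) held 3, at 223, 128 and 50 bases, and Slc30a10 (chr1:185454598-185454847, plus strand) held 3, at 233, 232 and 73 bases, of which the first 2 overlap. Mt3 and Mtf1 held 0. The starts were taken as annotated and were not checked, and bases outside these windows were not searched. A count of matches therefore describes the window shown and not all metal response elements of a gene. Capitals mark the matches, on either strand, and a match describes letters only.
Mt1: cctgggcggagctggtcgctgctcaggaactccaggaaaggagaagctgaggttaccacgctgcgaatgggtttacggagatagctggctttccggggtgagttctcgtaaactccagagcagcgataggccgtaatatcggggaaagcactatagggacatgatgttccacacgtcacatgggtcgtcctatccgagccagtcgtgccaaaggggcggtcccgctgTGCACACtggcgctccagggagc
Mt2: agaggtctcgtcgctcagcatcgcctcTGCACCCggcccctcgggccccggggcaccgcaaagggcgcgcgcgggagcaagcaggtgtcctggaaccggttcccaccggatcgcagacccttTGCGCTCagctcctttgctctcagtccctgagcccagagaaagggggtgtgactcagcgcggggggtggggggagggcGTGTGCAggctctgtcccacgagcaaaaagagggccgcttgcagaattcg
Slc30a1: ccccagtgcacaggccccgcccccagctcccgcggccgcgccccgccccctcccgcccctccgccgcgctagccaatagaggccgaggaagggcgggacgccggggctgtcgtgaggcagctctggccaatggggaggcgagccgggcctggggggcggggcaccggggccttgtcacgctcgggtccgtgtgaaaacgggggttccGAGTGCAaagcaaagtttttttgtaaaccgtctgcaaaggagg
Slc30a10: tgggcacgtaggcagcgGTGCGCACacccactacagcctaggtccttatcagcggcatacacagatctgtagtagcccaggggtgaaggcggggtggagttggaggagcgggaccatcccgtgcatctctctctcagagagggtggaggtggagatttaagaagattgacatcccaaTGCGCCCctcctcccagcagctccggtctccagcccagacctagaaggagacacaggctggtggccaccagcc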

How the data were processed

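The authors deposited raw counts per gene, made by aligning reads to GRCm39 with HISAT2 2.0.5 and counting with featureCounts 1.5.0-p3. Their strand setting and their handling of reads in overlapping genes are not given in the sources used here. Members and lists were chosen with earlier results of these data known. By rule the named genes are the 7 members, other metallothionein, SLC30 and SLC39 genes called in both cohorts of a tissue (there were 0), and for Mt1, Mt2 and Slc39a14 the 3 genes with the highest Pearson r over the liver libraries of mice 1 to 16. The other transporters named were chosen after their values were seen. Counts were filtered with filterByExpr, scaled by TMM and tested in edgeR 4.0.16 (R 4.3.3) by the quasi-likelihood test with Benjamini-Hochberg adjustment over all genes tested. Responses were compared by interaction terms. Alternatives were RLE size factors, library totals, DESeq2 1.42.0, no filter beyond 1 count, a block per replicate or mouse number, leaving out AL mouse 2 and IF mouse 10, and adding the library of AL mouse 1. Correlations used log2 CPM with 0.5 counts added and 100000 permutations within diet (Python 3.11.15, scipy 1.17.1). The pipeline was tested on simulated data in which 200 genes had a 2-fold change. Of these, 64% were called in liver of mice 1 to 16 and 59% in liver of mice 25 to 40. In muscle and cortex of the cohorts the share ran from 78.5% to 86%.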

Additional observations from a re-analysis of the deposited data

Results flagged for a closer look

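Of 69 groups of libraries tested for a library far from the others, 2 had one, where chance gives about 1 in 20. Mtf1 in liver was at 15.3 CPM in IF mouse 9, and the next library of its group was at 8.90 CPM. Slc30a10 in liver was at 44.1 CPM in IF mouse 36, and the next library was at 25.6 CPM.

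The response to diet differed between the cohorts by the interaction test in 5 cases. The difference in log2 fold change, mice 25 to 40 minus mice 1 to 16, was -4.00 for Mt1 in liver, 1.40 for Slc30a10 in liver, -0.74 for Slc30a1 in liver, -0.77 for Mt1 in muscle and 0.42 for Slc30a10 in cortex. Labelled sex and any other difference between the cohorts cannot be told apart.

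The response to diet in mice 1 to 16 differed between tissues in 4 cases. The difference was 3.23 for Mt1 between liver and muscle, 3.88 for Mt1 between liver and cortex, 0.95 for Slc30a1 between liver and cortex and -1.30 for Slc30a10 between liver and cortex.

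The omitted cortex library of AL mouse 1, labelled male, had 213 CPM of Xist, while the highest value in the other cortex libraries labelled male was 0.229 CPM.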

How the results depend on the processing

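Among members that passed the filter in every group compared, 39 results were called. They have 247 values under alternatives, of which 231 kept direction and call, 15 kept direction and lost the call and 1 changed direction. The 71 results that were not called have 421 values, of which 379 stayed so, 12 kept direction and passed the threshold and 30 changed direction, of which 2 passed it (AL levels of Mtf1 in mice 1 to 16 and of Slc30a1, below). Mt1, Slc30a1 and Slc30a10 in liver of mice 1 to 16, and Mt1 and Slc30a1 in muscle of mice 1 to 16, were called under every alternative run. Where a value below changed, the cause was not tested.

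Counts of genes called moved over 1.5 times here. The erythroid covariate, chosen after seeing the data, moved liver of mice 1 to 16 from 7234 to 4190. DESeq2 moved liver of mice 25 to 40 from 0 to 8, muscle of mice 25 to 40 from 1 to 83, cortex of mice 1 to 16 from 1332 to 2140, cortex of mice 25 to 40 from 2 to 60 and the cohort difference in cortex from 397 to 713. For the tissue differences of mice 25 to 40 it moved liver minus muscle from 13 to 209, liver minus cortex from 12 to 239 and muscle minus cortex from 1 to 28. With no filter beyond 1 count, muscle of mice 25 to 40 went from 1 to 5, the cohort difference in cortex from 397 to 220, and in mice 25 to 40 liver minus cortex from 12 to 5 and muscle minus cortex from 1 to 0. RLE size factors moved liver minus cortex in mice 25 to 40 from 12 to 28. Library totals moved cortex of mice 25 to 40 from 2 to 0 and muscle minus cortex there from 1 to 0. Without AL mouse 2 and IF mouse 10, cortex of mice 1 to 16 had 498 and its cohort difference 184. With the library of AL mouse 1 these were 294 and 81.

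AL and IF libraries of 1 replicate number did not deviate together (median r from -0.0957 to 0.0620 over 6 sets), nor did all correlate best with their own number in any set, so the numbers do not pair them. In muscle of mice 25 to 40 single pairs ran from an r of -0.277 to 0.471, with 4 of 8 pairs over 0.1. The replicate block moved cortex of mice 1 to 16 from 1332 to 382, cortex of mice 25 to 40 from 2 to 0, and in mice 25 to 40 liver minus muscle from 13 to 1 and liver minus cortex from 12 to 0. With the block, Slc30a10 in cortex of mice 1 to 16 was at -0.29 (adjusted p 0.117), its cohort difference at 0.44 (adjusted p 0.0781), the Mt1 cohort difference in muscle at -0.74 (adjusted p 0.136) and that of Slc30a1 at -0.46 (adjusted p 0.0401). Between tissues the block, the mouse, changed 1 member call, the AL level of Mt2 in liver minus cortex of mice 25 to 40 (1.27, adjusted p 0.0811). Under the block these uncalled values changed sign. Mt2 in liver of mice 25 to 40 became 0.74 and its liver minus cortex difference 0.61. Mt3 in muscle of mice 25 to 40 became 0.11 and its muscle minus cortex difference 0.0582. Mt1 liver minus muscle in mice 25 to 40 became 0.11. Slc39a14 in cortex of mice 1 to 16 became -0.00168, its cohort difference there 0.00199 and its liver minus cortex difference -0.0187.

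Library totals moved the balance of genes called higher and lower, from 3815 and 3419 to 4402 and 2694 in liver of mice 1 to 16, from 1726 and 1737 to 2553 and 1073 in muscle, from 2265 and 1919 to 1481 and 2771 for the cohort difference in liver, and from 1207 and 1107 to 522 and 2563 for that in muscle. The median of all genes shifted from 0.06 to 0.15 in liver and from 0.01 to 0.08 in muscle of mice 1 to 16. With library totals, the changed signs were 0.00671 for Mtf1 in liver of mice 1 to 16, -0.0186 for Mt1 in muscle and 0.00333 for Slc39a14 in cortex of mice 25 to 40. The cohort difference of Slc39a14 became -0.11 in liver and 0.00177 in cortex, and that of Mtf1 -0.0895 in liver and -0.0411 in muscle. Liver minus muscle in mice 25 to 40 became 0.0493 for Mtf1 and 0.0614 for Mt1. The AL level of Mtf1 in muscle minus cortex became -0.90 in mice 1 to 16 and -0.31 in mice 25 to 40, and that of Slc30a1 in liver minus cortex -0.48 in mice 25 to 40, which passed the threshold.

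Without AL mouse 2 and IF mouse 10, Mt3 in muscle became -0.0816 and its cohort difference 0.0334, Slc39a14 in cortex -0.0157, and the cohort difference of Slc39a14 -0.0307 in liver and 0.00760 in cortex. With the library of AL mouse 1 the cohort difference of Mtf1 in cortex became -0.00970. With no filter Mtf1 liver minus muscle became -0.00496 in mice 1 to 16 and 0.0119 in mice 25 to 40, and Mt1 liver minus muscle in mice 25 to 40 became 0.00848. That Mt1 value was 0.00683 with RLE size factors and 0.00705 in DESeq2. The Mt1 and Mt2 correlation in liver of mice 1 to 16 was 0.88 on linear CPM (permutation test, adjusted p 0.00993).

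Low counts limit the results of Mt2 in liver and muscle and of Mt3 in liver, and the cause of these low counts was not tested. A member that missed the threshold is not shown to be unchanged.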

Other observations

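The omitted cortex library of AL mouse 1 held 352 CPM of Mt1, 301 CPM of Mt3, 0.167 CPM of Mt2, 14.8 CPM of Mtf1, 21.2 CPM of Slc30a1, 12.3 CPM of Slc30a10 and 19.1 CPM of Slc39a14. Its counts were nearest to those of the cortex library of IF mouse 40, with a chi-square per gene of 4.29 over 18826 genes, and next to IF mouse 39 with 9.18. Among the 465 other pairs of cortex libraries the lowest was 7.76 and the median 37.5, and its median with the other AL cortex libraries of mice 1 to 16 was 46.7.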
